A study of Homo sapiens with 4 samples.

Results

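The 10 genes described here handle iron: the ferritin chains FTL and FTH1, the uptake genes TFRC, SLC11A2 and STEAP3, the exporter SLC40A1, the release genes NCOA4 and HMOX1, and the iron regulatory proteins IREB2 and ACO1. They were chosen by symbol from the 58735 genes measured, and all 10 were found. The set was selected on the lower FTL level of the shNME7 libraries, so the FTL difference is given as a description without a test. RNA-seq measured their transcripts in 4 libraries, all labelled Huh7, a line from a human liver cancer. The 2 shNME7 libraries came from cells with a short hairpin RNA against NME7, which encodes a nucleoside diphosphate kinase family protein, and the 2 shCtrl libraries from cells with a control hairpin. The labels give no drug, no iron treatment, no time after introduction of the hairpin, no hairpin sequence, and no statement on whether the lines are clones. Whether the libraries of a group stem from separate cultures is not said either, so every p-value here reflects library-to-library spread alone, which may be technical.

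Ferritin is a hollow protein shell that stores iron, built from a heavy chain with ferroxidase activity (FTH1) and a light chain that promotes formation of the mineral core (FTL). Cells take up transferrin-bound iron through the transferrin receptor, export iron through ferroportin, and recover stored iron when NCOA4 carries ferritin to the lysosome. When iron is scarce, the iron regulatory proteins ACO1 and IREB2 bind hairpins called iron-responsive elements, which blocks translation of the ferritin chains and stabilises the transferrin receptor mRNA. The liver is a main site of iron storage.

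Each library held 14877906 to 16991397 fragments, recovered from the deposited FPKM values (fragment counts divided by exon length and by library size), and 12854 to 13081 genes reached 1 FPKM. NME7, the target of the hairpin, had 3.64 and 3.93 FPKM in shCtrl against 0.835 and 0.626 in shNME7, a mean 5.18-fold lower. The labelled cell type was not borne out by its markers. Of 10 hepatocyte and Huh7 markers none reached a mean of 1 FPKM, 8 had at most 3 fragments in every library, the most was 10 (HNF4A), and APOA1, APOB, FGB and GPC3 were at 0 in all 4. ALB, which encodes albumin, had 0, 0, 0 and 1 fragments, whereas 4 of 6 fibroblast markers (COL1A1, COL3A1, PDGFRB and LUM) passed the filter, while COL1A2 had 2, 0, 0 and 0 fragments and DCN between 6 and 16. The 6 summed to 103 and 92.1 FPKM in shCtrl against 98.7 and 97.3 in shNME7, of which COL3A1 gave between 66.9 and 76.6. The 6 erythroid markers had at most 1 fragment each in every library, and the 6 macrophage and leukocyte markers summed to between 0.733 and 1.5 FPKM. The 4 endothelial markers summed to 2.29 and 1.94 FPKM in shCtrl against 2.81 and 3.47 in shNME7, higher in both. Of these sums CDH5 gave 1.70 and 1.31 against 1.88 and 2.67, and it alone passed the filter. PECAM1 was also higher in both shNME7 libraries, but VWF had 1 to 4 fragments and KDR was at 0 in all 4. The part of these markers in the results was not tested. What the cells are was not tested. In bulk RNA, fewer cells of a type and less RNA per cell cannot be told apart.

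The hairpins through which the regulatory proteins act could be read from the transcripts of 4 of the 10 genes. GENCODE release 29 transcripts (GRCh38) were searched on the sense strand for the loop CAGTGN above 5 stem pairs and an unpaired C, with at least 4 of 6 lower pairs. Such a hairpin was present in 44 of 19669 genes with coding transcripts (0.224%). The sites are shown 5′ to 3′, with the 6-base loop in capitals, because under this pattern they were found in FTL, FTH1, SLC40A1 and TFRC and not in the other 6 members.
FTL 5′ UTR, chr19:48965335-48965363, plus strand: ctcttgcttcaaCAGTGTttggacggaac
FTH1 5′ UTR, chr11:61967574-61967602, minus strand: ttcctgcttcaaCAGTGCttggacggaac
SLC40A1 5′ UTR, chr2:189580661-189580689, minus strand: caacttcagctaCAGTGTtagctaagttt
TFRC 3′ UTR, chr3:196050979-196051007, minus strand: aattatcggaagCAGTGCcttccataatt
TFRC 3′ UTR, chr3:196050575-196050603, minus strand: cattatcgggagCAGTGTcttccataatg
TFRC 3′ UTR, chr3:196050510-196050538, minus strand: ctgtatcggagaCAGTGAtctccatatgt
TFRC 3′ UTR, chr3:196050463-196050491, minus strand: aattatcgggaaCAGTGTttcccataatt
The FTL site lies in its 1 coding transcript, the FTH1 site in 7 of 8, the SLC40A1 site in 1 of 5 and the TFRC sites in 3 of 4. The FTL and FTH1 sites share 26 of 29 bases, the most similar pair among those compared. The 4 TFRC sites share 18 to 25 bases with each other and 10 to 13 with the FTL site. A match describes these letters and is not evidence that a protein was bound. No match says only that the other members' transcripts do not hold this pattern, which known elements of another form, such as that of SLC11A2, can miss. For the same reason the sites found in a gene, as in TFRC, need not be all of its elements.

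The light chain stood lower in the shNME7 libraries, while the heavy chain did not separate the groups. FTL (ENSG00000087086, chr19:48965301-48966878, plus strand) measured 993 and 850 FPKM in shCtrl 1 and 2 against 458 and 493 in shNME7 1 and 2. The groups did not overlap, shNME7 being the lower, with means of 922 ± 101 and 476 ± 24.7 FPKM (SD, n = 2), a level 1.94-fold lower. The log2(FPKM + 1) difference was -0.95 (SE 0.17), as a description of the value that chose the set. These levels rest on 13873, 12041, 6049 and 7357 fragments, so counting error is small beside the gap. Within shCtrl the 2 libraries differed by 0.22 in log2 against 0.02 expected from counting alone, so the spread between libraries sets the precision.

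FTH1 (ENSG00000167996, chr11:61959718-61967660, minus strand) measured 878 and 681 FPKM in shCtrl 1 and 2 against 663 and 841 in shNME7 1 and 2. The groups overlapped, each holding 1 high and 1 low library, with means of 780 ± 139 and 752 ± 125 FPKM. The log2 difference was -0.05 (SE 0.21, 95% interval -0.55 to 0.45), with a limma-trend adjusted p = 0.964, from a linear model fitted across all 12866 genes with a mean of at least 1 FPKM. The spread within the groups limits this value: the interval includes a fall of 0.55 as well as a rise of 0.45 in log2. Its sign rests on single libraries, being 0.13 without shCtrl 1 and 0.12 without shNME7 1.

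Within each library the balance of the chains therefore differed between the groups. The ratio of FTL to FTH1 in FPKM, which is scaled by length, was 1.13 and 1.25 in shCtrl 1 and 2 against 0.691 and 0.587 in shNME7 1 and 2. FTL was the more abundant chain mRNA in both shCtrl libraries and FTH1 in both shNME7 libraries. FTL made up 53.1% and 55.5% of the summed FPKM of both chains in shCtrl against 40.9% and 37.0% in shNME7. The sum itself was 1871 and 1531 FPKM in shCtrl against 1122 and 1334 in shNME7, lower in both. These ratios carry the FTL difference that chose the set and are given with no test.

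**Figure D1:**
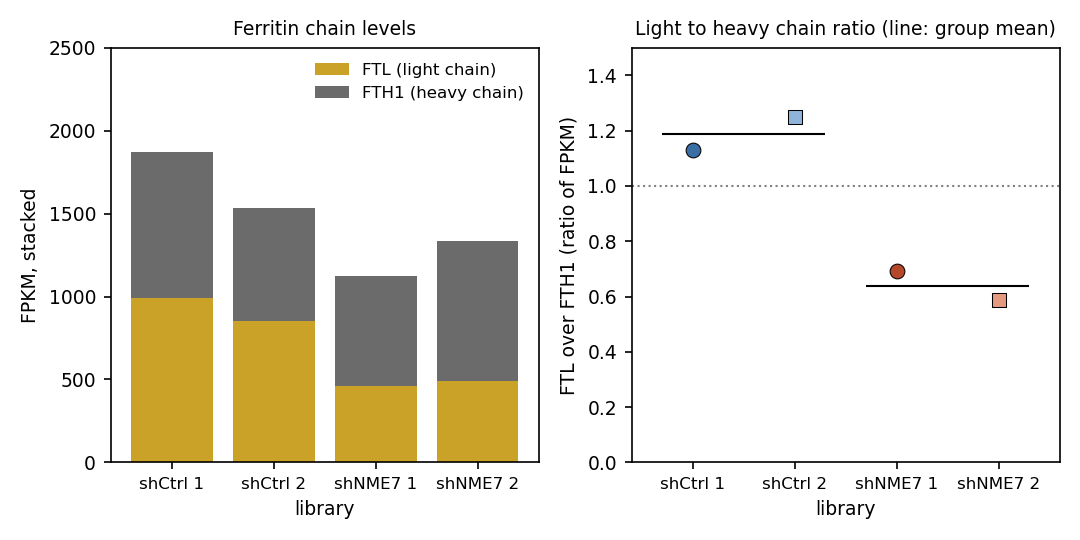
Stacked bars give the FPKM of the ferritin chains FTL and FTH1 in each of the 4 libraries, and points give the ratio of FTL to FTH1 in each library, with a line at each group's mean. FTL stands at 993 and 850 in shCtrl against 458 and 493 in shNME7, while FTH1 overlaps between the groups, and the ratio lies above 1 in both shCtrl libraries and below 1 in both shNME7 libraries.

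Both ferritin chains have many processed copies in the genome that could share their reads. GENCODE names 16 FTL copies, of which 4 were above 0, and 25 FTH1 copies, of which 12 were above 0. Fragments assigned to the FTL copies numbered 11, 16, 7 and 14 over the 4 libraries, at most 0.190% of those assigned to FTL. The highest was FTLP12 with 3, 8, 6 and 12 fragments, followed by FTLP3 with 8, 5, 1 and 2 and FTLP14 with 0, 2, 0 and 0. The FTH1 copies held 288, 232, 220 and 275 fragments, between 0.949% and 1.09% of FTH1. FTH1P2 led with 75, 75, 80 and 82, then FTH1P7 with 87, 56, 53 and 65 and FTH1P8 with 55, 43, 37 and 49. How the authors' counting treated reads that match several places is not given in the sources used here, and the part of shared reads in the FTL difference was not tested. FTH1 also shares 1267 exon bases with BEST1 on the opposite strand, which held 4 to 12 fragments.

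No uptake gene passed the test. TFRC (ENSG00000072274, chr3:196027183-196082189, minus strand), the transferrin receptor, measured 61.8 and 70.8 FPKM in shCtrl against 69.6 and 67.5 in shNME7. The groups overlapped, with means of 66.3 ± 6.42 and 68.5 ± 1.49 FPKM and a log2 difference of 0.05 (SE 0.14, 95% interval -0.30 to 0.40, limma-trend adjusted p = 0.943). Without shCtrl 1 the TFRC difference was -0.05. SLC11A2 (ENSG00000110911, chr12:50979401-51028566, minus strand), which moves ferrous iron out of the endosome, measured 14.6 and 15.6 FPKM in shCtrl against 16.0 and 15.3 in shNME7. It also overlapped between the groups, and its log2 difference was 0.05 (SE 0.13, 95% interval -0.27 to 0.37, adjusted p = 0.940). With a library left out it ran from 0.00 to 0.09.

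STEAP3 (ENSG00000115107, chr2:119223831-119265652, plus strand), the endosomal reductase that turns ferric into ferrous iron, measured 10.3 FPKM in both shCtrl libraries against 11 and 13.4 in shNME7. Both shNME7 libraries were higher, shNME7 2 most of all, but the log2 difference of 0.21 (SE 0.15, 95% interval -0.14 to 0.57) had an adjusted p of 0.827. Without shNME7 2 it was 0.09. It shares 500 exon bases with its antisense neighbour STEAP3-AS1, which held 3 to 6 fragments. SLC40A1 (ENSG00000138449, chr2:189560579-189583758, minus strand), which encodes ferroportin, had no fragment in any library, which allows up to 3 fragments per library, and it was not tested. The exporter thus gave no measurable transcript in either group at this depth.

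**Figure D2:**
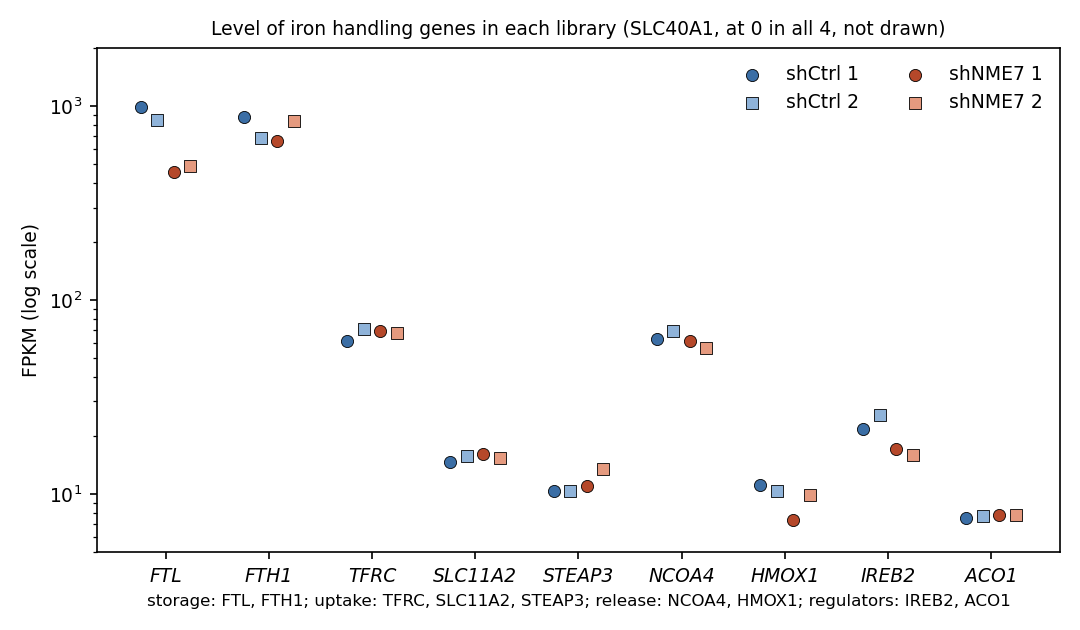
FPKM of the iron handling genes on a log axis, with 1 point for each of the 4 libraries. The ferritin chains stand highest and ACO1 lowest of those detected, SLC40A1 is at 0 in all 4 libraries and is not drawn, and FTL is the gene whose shNME7 points lie farthest from its shCtrl points.

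The genes that release iron from storage and from haem stood lower in both shNME7 libraries without passing the test. NCOA4 (ENSG00000266412, chr10:46005088-46030714, minus strand), the receptor that delivers ferritin to the autophagosome, measured 62.9 and 69.3 FPKM in shCtrl against 61.7 and 56.8 in shNME7. The groups touched closely, shNME7 1 lying just under shCtrl 1, and the log2 difference was -0.15 (SE 0.14, 95% interval -0.50 to 0.19, adjusted p = 0.839). It was -0.08 without shCtrl 2 and -0.10 without shNME7 2. HMOX1 (ENSG00000100292, chr22:35380361-35394214, plus strand), the inducible haem oxygenase that frees iron from haem, measured 11.1 and 10.4 FPKM in shCtrl against 7.36 and 9.89 in shNME7. Its means were 10.7 ± 0.543 and 8.62 ± 1.79 FPKM, 1.25-fold lower, with a log2 difference of -0.30 (SE 0.17, 95% interval -0.71 to 0.11, adjusted p = 0.795). It rests on 266 to 426 fragments per library, and shNME7 1 decides its size: without that library the difference was -0.11.

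Of the iron regulatory proteins, IREB2 stood lower in shNME7 and ACO1 did not. IREB2 (ENSG00000136381, chr15:78437431-78501456, plus strand), which is degraded when iron is ample, measured 21.7 and 25.4 FPKM in shCtrl against 17.1 and 15.9 in shNME7. The groups did not overlap, shNME7 being the lower, with means of 23.6 ± 2.62 and 16.5 ± 0.851 FPKM, 1.43-fold lower. The log2 difference was -0.49 (SE 0.15, 95% interval -0.84 to -0.14). It was the only 1 of the 8 tested members other than FTL with an unadjusted limma-trend p under 0.05, and it did not pass the correction over all genes (adjusted p = 0.728). In limma-voom on the recovered fragments the difference was -0.51 (SE 0.16, adjusted p = 0.451).

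ACO1 (ENSG00000122729, chr9:32384603-32454769, plus strand), a cytosolic aconitase that becomes an RNA-binding protein when it loses its iron-sulfur cluster, measured 7.53 and 7.70 FPKM in shCtrl against 7.77 in both shNME7 libraries. The shNME7 libraries were higher by a margin of 0.03 in log2 (SE 0.13, 95% interval -0.29 to 0.34, adjusted p = 0.971). The ratio of IREB2 to ACO1 within each library was 2.89 and 3.30 in shCtrl against 2.20 and 2.04 in shNME7, lower in both shNME7 libraries. The ratio of TFRC to IREB2 was 2.84 and 2.79 in shCtrl against 4.08 and 4.25 in shNME7, higher in both. Both ratios carry the IREB2 difference, which did not pass the test. Other ratios overlapped between the groups. That of TFRC to FTH1 was 0.0703 and 0.104 in shCtrl against 0.105 and 0.0803 in shNME7. That of NCOA4 to FTH1 was 0.0716 and 0.102 in shCtrl against 0.0931 and 0.0676 in shNME7. With 2 libraries against 2, an exact two-sided permutation test of a single ratio cannot go below 0.333, so none was run.

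**Figure D3:**
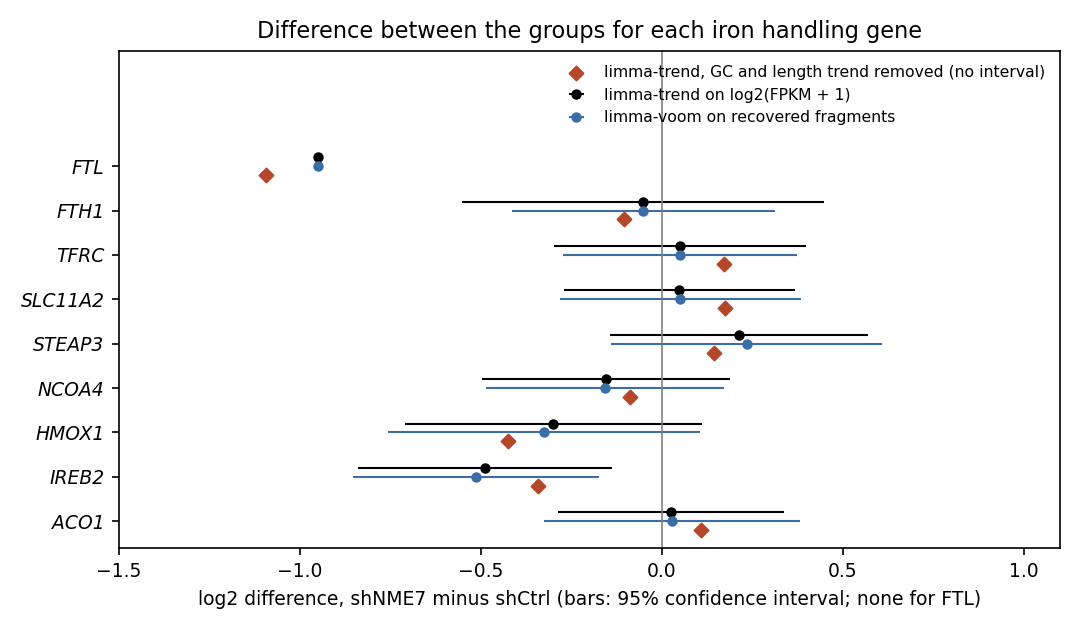
Log2 difference between shNME7 and shCtrl for each iron handling gene with a mean of at least 1 FPKM, from limma-trend and limma-voom with 95% intervals, and from limma-trend after removal of the GC and length trend as a point only. FTL is drawn without an interval because it chose the set, and of the others only the IREB2 intervals lie wholly below 0.

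Among the members other than FTL, 8 of 9 were tested, and 4 were higher and 4 lower in shNME7. None was called at an adjusted p under 0.05 in limma-trend, where 0 of 12866 genes were called (0%) and 859 had an unadjusted p under 0.05. None was called in limma-voom either, where 16 of 15112 genes were (0.106%) and 1197 had an unadjusted p under 0.05. For 3 of the 8 (IREB2, NCOA4 and HMOX1) each shNME7 library lay under each shCtrl library, as for 18.4% of all tested genes. For ACO1 and STEAP3 each lay over, as for 17.8%. The median difference of the 8 was -0.01 in log2 and that of all tested genes 0.01.

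The difference between the groups moved with GC content. Across the tested genes, which are not independent replicates, the Spearman rho of the difference with GC content was 0.41, and what it stems from was not tested. After a trend on GC content and exon length was removed from each library, FTL differed by -1.10, beside -0.95 before. Its levels were then 986 and 948 in shCtrl against 466 and 439 in shNME7. The part of that trend in the FTL difference was not tested. The IREB2 difference moved to -0.34 and that of HMOX1 to -0.43. TFRC moved to 0.17 and SLC11A2 also to 0.17. Both then stood higher in both shNME7 libraries, as did ACO1 and STEAP3, while IREB2, NCOA4 and HMOX1 stood lower in both. How many of all tested genes separated the groups after that step was not counted. Genes with an unadjusted limma-trend p under 0.05 rose from 859 to 1668 of 12866. The FTH1 difference was -0.10 and its groups still overlapped.

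By mean level over the 4 libraries the order was FTH1 at 766 FPKM, FTL at 699, TFRC at 67.4, NCOA4 at 62.7, IREB2 at 20.0, SLC11A2 at 15.4, STEAP3 at 11.3, HMOX1 at 9.69 and ACO1 at 7.69, with SLC40A1 at 0. The ferritin chains ranked 31 and 37 among all 58735 genes. Neighbours in this order were not always separated. FTH1 exceeded FTL in 2 of 4 libraries, TFRC exceeded NCOA4 in 3 of 4, STEAP3 exceeded HMOX1 in 2 of 4 and HMOX1 exceeded ACO1 in 3 of 4. The other neighbours kept their order in all 4 libraries.

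The wider iron pathway was read through 79 further genes in 8 lists, of which 63 were tested and 3 had no fragment in any library. None of the 63 was called in limma-trend, nor any of the 65 tested in limma-voom. Of the 63, 4 had an unadjusted limma-trend p under 0.05 (SLC39A14, BLVRA, CDC42BPA and EPAS1), beside 859 of all 12866 genes tested. In shNME7 35 were higher and 28 lower, with a median difference of 0.03 beside 0.01 over all tested genes. The groups did not overlap for 12 of them with shNME7 the higher and for 14 with shNME7 the lower, beside 17.8% and 18.4% of all tested genes. Without shNME7 1, which leaves 1 library in that group, NUBP2 of the cytosolic iron-sulfur pathway differed by 0.65 in log2. With all 4 libraries NUBP2 differed by 0.37 (limma-trend adjusted p = 0.832) and its groups overlapped.

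Among 5 storage and cytosolic chaperone genes, 3 were tested, 2 higher and 1 lower. PCBP2, an iron chaperone that loads ferritin, measured 26.5 and 26.2 FPKM in shCtrl against 25.7 and 22 in shNME7 (log2 difference -0.14, adjusted p = 0.846). Without shNME7 2 its difference was -0.03, and without shNME7 1 it was -0.25. FTMT, the mitochondrial ferritin, had no fragment.

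Of 10 other uptake genes, 7 were tested, 1 higher and 6 lower. SLC39A14, a transporter of iron not bound to transferrin, measured 48.5 and 47.4 FPKM in shCtrl against 36.9 and 39.2 in shNME7 (log2 difference -0.33, adjusted p = 0.745). Its relative SLC39A8 measured 10.4 and 11.7 against 9.64 and 9.85 (-0.16, adjusted p = 0.837). TFR2, the second transferrin receptor and an iron sensor of the liver, measured 4.18 and 3.49 against 4.34 and 6.18 (0.36, adjusted p = 0.795). These 3 were named because their groups did not overlap, as for 1 higher and 2 lower of the 7, beside 17.8% and 18.4% of all tested genes. TFR2 reached the level for naming through shNME7 alone, and its difference was 0.15 without shNME7 2 and 0.58 without shNME7 1. That of SLC39A8 was -0.09 without shCtrl 2. TF, which encodes transferrin, had 2, 1, 0 and 0 fragments.

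Of 9 genes of export, oxidation and systemic control, 3 were tested, 1 higher and 2 lower. BMP6, the growth factor that signals iron load to hepcidin, measured 29.5 and 29.8 FPKM in shCtrl against 28.4 and 26.8 in shNME7 (log2 difference -0.10, adjusted p = 0.883). Without shNME7 2 it was -0.06. HAMP, which encodes hepcidin, and HEPH, a ferroxidase, had no fragment. CP, which encodes the ferroxidase ceruloplasmin, had 7, 4, 2 and 7 fragments.

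All 6 genes of regulatory protein turnover and ferritin autophagy were tested, 1 higher and 5 lower, with a median of -0.16, or -0.08 once the GC and length trend was removed. RB1CC1, a subunit of the complex that starts autophagosome formation, measured 23.9 and 29 FPKM in shCtrl against 22.4 and 17.9 in shNME7 (log2 difference -0.38, adjusted p = 0.782). ATG9A, a lipid scramblase of the growing autophagosome, measured 12.4 and 12.2 against 9.37 and 11.7 (-0.21, adjusted p = 0.836). FBXL5, the iron-sensing ligase subunit that marks IREB2 for degradation, measured 16.4 and 16.7 against 15.9 and 14.4 (-0.12, adjusted p = 0.861, and 0.00 in limma-voom once GC and length trends were removed). These 3 were named because their groups did not overlap, and those of HERC2, TAX1BP1 and ATG7 did, so 3 of 6 lay lower in both shNME7 libraries beside 18.4% of all tested genes. ATG9A was at -0.07 without shNME7 1 and -0.36 without shNME7 2. RB1CC1 was at -0.22 and FBXL5 at -0.06 without shNME7 2.

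Haem synthesis, transport and breakdown held 18 genes, of which 14 were tested, 12 higher and 2 lower, with a median of 0.17, or 0.15 once the GC and length trend was removed. BLVRA, which reduces the biliverdin made by haem oxygenase, measured 24.3 in both shCtrl libraries against 33.2 and 35.5 FPKM in shNME7 (log2 difference 0.48, adjusted p = 0.683). UROD, an enzyme of haem synthesis, measured 35.2 and 30.4 against 36.2 and 42.6 (0.26, adjusted p = 0.805). ALAD, which acts earlier in the same pathway, measured 6.85 and 5.67 against 6.90 and 8.54 (0.26, adjusted p = 0.812). These 3 were named because their groups did not overlap. Of the 14, 6 were higher and 1 lower in both shNME7 libraries, beside 17.8% and 18.4% of all tested genes. Without shNME7 2, UROD was at 0.14 and ALAD at 0.13, and without shCtrl 2 they were at 0.15 and 0.15.

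Mitochondrial iron-sulfur assembly had 18 of 19 genes tested, 10 higher and 8 lower. FDXR, which passes electrons to the assembly machinery, measured 8.29 and 6.99 FPKM in shCtrl against 8.56 and 11.1 in shNME7 (log2 difference 0.32, adjusted p = 0.795). NFS1, the cysteine desulfurase that supplies the sulfur, measured 7.95 and 8.0 against 9.36 and 9.02 (0.18, adjusted p = 0.833). NFU1, a cluster carrier, measured 13.3 and 12.8 against 10.8 and 11.7 (-0.19, adjusted p = 0.826). Without shNME7 2, FDXR was at 0.15, and without shNME7 1 at 0.49. Of the 18, 3 were higher and 2 lower in both shNME7 libraries, beside 17.8% and 18.4% of all tested genes.

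All 8 genes of cytosolic iron-sulfur assembly were tested, 7 higher and 1 lower, with a median of 0.24, or 0.18 once the GC and length trend was removed. The median GC content of this list was 58.2%, against 48.1% over all tested genes. NUBP1, a scaffold of the cytosolic pathway, measured 6.85 and 5.90 FPKM in shCtrl against 7.11 and 8.91 in shNME7 (log2 difference 0.29, adjusted p = 0.795). CIAO1, which targets clusters to their acceptor proteins, measured 31.5 and 30.8 against 33.9 and 37.7 (0.19, adjusted p = 0.833). MMS19, its partner, measured 19.1 and 19.4 against 17.2 and 19.0 (-0.09, adjusted p = 0.898). Without shNME7 2, NUBP1 was at 0.14 and CIAO1 at 0.12, and without shNME7 1 MMS19 was at -0.02. Of the 8, 2 were higher and 1 lower in both shNME7 libraries, beside 17.8% and 18.4% of all tested genes. The part of GC content in these differences was not tested further.

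The last list held 4 other transcripts known to carry an iron-responsive element, all tested, 1 higher and 3 lower, with a median of -0.37, or -0.25 once the GC and length trend was removed. EPAS1, the hypoxia factor whose mRNA is repressed by the regulatory proteins, measured 21.0 and 21.5 FPKM in shCtrl against 16.5 and 15.5 in shNME7 (log2 difference -0.39, adjusted p = 0.728). CDC42BPA, a kinase of the cytoskeleton, measured 8.90 and 11.1 against 6.83 and 7.72 (-0.40, adjusted p = 0.730). Without shCtrl 2 CDC42BPA was at -0.26. CDC14A, a phosphatase, measured 1.51 and 1.21 against 0.756 and 0.940 FPKM (-0.35, adjusted p = 0.795). The first 2 were named because their groups did not overlap, and with CDC14A 3 of 4 lay lower in both shNME7 libraries, beside 18.4% of all tested genes. CDC14A is also the only 1 of the 4 in which the hairpin search found a site. CDC14A lay below the level set for naming genes and is given to complete the list.

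**Figure D4:**
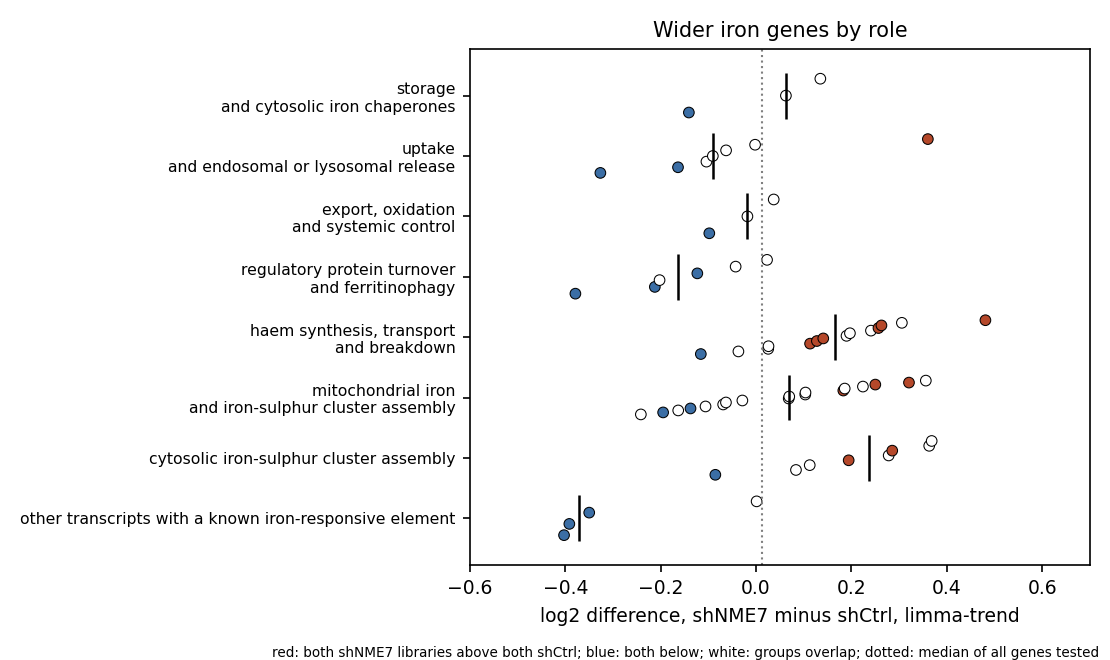
Log2 difference between shNME7 and shCtrl for each tested gene of the wider iron lists, with 1 point per gene, the lists in rows, a bar at each list's median and a dotted line at the median of all tested genes (red: both shNME7 libraries above both of shCtrl, blue: both below, white: overlapping). The points lie on both sides of 0, with medians of 0.24 for cytosolic iron-sulfur assembly and -0.37 for the other transcripts with an iron-responsive element, and no gene passed the test.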

How the data were processed

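The authors deposited 1 table per library with FPKM values, per the file headers. HISAT2 2.0.5 and the build hg18 are named in the submitters' processing notes. Neither counter nor annotation is given in the sources used here. GENCODE release 29, an annotation of GRCh38, holds each of the 58735 gene IDs and gave names, exon lengths, transcripts and coordinates.

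FPKM times exon length gave whole fragments within 0.01 for 100% of values. A count of 0 allows 3 fragments (0.177 to 0.202 CPM per library), which covers counting error only. The main test was limma-trend (limma 3.58.1, R 4.3.3) on log2(FPKM + 1) for 12866 genes with a mean of at least 1 FPKM, with Benjamini-Hochberg adjustment over all of them and a threshold of 0.05. This scale understates the change of low genes. All SE and intervals are from this two-sided fit unless limma-voom is named, which used the 15112 genes averaging at least 10 fragments. The scripts were tested on simulated data.

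The members and lists were chosen with earlier results of these data known. All 10 members are named. Per wider list the text names called genes and up to 3 others with the largest difference among those at 5 FPKM or more in the higher group whose groups did not overlap, or else the largest 1. Copies named are the 3 highest. NUBP2, CDC14A and the iron genes given with few or no fragments were named after their values were seen. Alternatives were a pseudocount of 0.1, other filters and scalings, GC and length trends removed by loess (span 0.3), the replicate block and each library left out. Limma-voom with GC removal or with a library left out and a crossed pairing were added after seeing the data.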

Additional observations from a re-analysis of the deposited data

How the results depend on the processing

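FTL was given no test, and none of the other members was called under any of the 21 alternatives. FTL ranged from -1.13 to -0.84 in log2, the value with the GC and length trend removed being -1.10. IREB2 ranged from -0.63 to -0.33, with a lowest adjusted p of 0.108, HMOX1 from -0.54 to -0.11, NCOA4 from -0.23 to -0.07, STEAP3 from 0.09 to 0.37, SLC11A2 from 0.00 to 0.21 and ACO1 from 0.01 to 0.13. FTH1 and TFRC turned sign with single libraries left out. FTH1 ran from -0.23 to 0.13 over the libraries left out in limma-trend and limma-voom, being 0.13 without shCtrl 1 and 0.12 without shNME7 1, and TFRC ran from -0.05 to 0.15, being -0.047 without shCtrl 1 in limma-trend and -0.0477 in limma-voom. FBXL5 was at 0.00 (0.0022) in limma-voom with the GC trend removed. Of the wider genes 0 to 1 were called with a library left out: without shNME7 1, NUBP2 was called at 0.65 (limma-trend adjusted p = 0.0457), and 1 gene, again NUBP2, in limma-voom (0.69, adjusted p = 0.0392). There the lone library is assumed to vary like the other group. Same-numbered libraries deviated apart (correlation -0.35). This cannot decide whether they were prepared as pairs, which the labels do not say. With the replicate block 0 members and 0 wider genes were called, against 122 of all genes tested, and 0 of all with a crossed pairing. Over all genes, leaving out a library gave between 112 (without shCtrl 2) and 632 calls (without shNME7 1) in limma-trend and between 28 and 430 (the same libraries) in limma-voom, which called 34 with the block and 12 with the GC trend removed. The causes were not tested. With 2 libraries a group, the spread between libraries, not depth, limits most members. For ACO1 the 2 libraries of each group differed by less than counting error, and SLC40A1 had no fragment. The shCtrl libraries of STEAP3 differed by less than counting error and those of HMOX1 by about as much, but their shNME7 libraries by more.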

Other observations

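The genes whose pattern over the 4 libraries lay closest to FTL were ranked by Euclidean distance between centred log2 profiles, among 4604 protein-coding genes outside the lists with a mean of at least 10 FPKM. TRIB3, a stress-induced pseudokinase, came first at a distance of 0.213, with 114 and 92.0 FPKM in shCtrl and 47.1 and 45.6 in shNME7. AJUBA, a scaffold protein of cell junctions, followed at 0.271 with 26.8 and 21.6 against 13.5 and 15.6 FPKM. STC2, a secreted glycoprotein, stood at 22.2 and 19.3 against 11.5 and 9.0 FPKM (distance 0.305). PSPH and PSAT1, which are both enzymes of serine synthesis, lay at 0.307 and 0.318. PSPH measured 58.0 and 51.4 against 35.0 and 31.3 FPKM, and PSAT1 measured 193 and 187 against 120 and 102. The likeness is over 4 libraries only and carries no test.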
